A study of Mus musculus with 15 samples.

Results

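The Serpina3 serpins described here are 6 mouse genes, Serpina3c, Serpina3f, Serpina3g, Serpina3k, Serpina3m and Serpina3n, measured by RNA sequencing of primary hepatocytes. They were chosen by gene symbol, and each of the 6 symbols had 1 entry among the 24347 entries of the expression table. Hepatocytes are the main cell type of the liver, and these were isolated from wild type male mice by collagenase digestion and kept in culture. The 15 libraries formed 5 groups of 3. The vehicle group received neither stimulus nor cytokine. The cAMP group received 100 µM cAMP for 3 h, and the glucagon group received 100 nM glucagon, the fasting hormone that raises cAMP in hepatocytes, for 3 h. The groups cAMP with IL-13 and glucagon with IL-13 received recombinant interleukin-13 (IL-13), a type 2 cytokine, at 10 ng/mL for 2 h before the stimulus and again during it. IL-13 alone was not given to any group. The strain was not settled. The strain label starts at C57BL/6 and its last number rises from sample to sample, while the study's methods give BALB/c unless noted otherwise. Whether a group's 3 libraries stem from different mice or cultures is not stated, and each p-value below therefore reflects the variation among those libraries, part or all of which could be technical.

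Serpins are protease inhibitors that offer a bait loop to a protease and trap it in a covalent complex once the loop is cut. Humans carry a single SERPINA3 gene, which encodes alpha-1-antichymotrypsin, an acute-phase plasma inhibitor of cathepsin G and chymase made by the liver. In the mouse this gene has been duplicated into a cluster of close copies, most of which differ in the bait loop. IL-13 acts through IL-4 receptor alpha and IL-13 receptor alpha-1 on JAK kinases and on STAT factors, chiefly STAT6, while IL-6 drives acute-phase genes through STAT3.

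All 6 genes lie in 1 stretch of 267.4 kb on chromosome 12 (mm10, chr12:104146907-104414334). Between Serpina3c at its start and Serpina3n at its end lie Serpina3f (104214544 to 104221129), Serpina3g (104236147 to 104241939), Serpina3k (104338486 to 104345739) and Serpina3m (104387157 to 104394259). The closest pairs by transcript sequence were Serpina3k and Serpina3m, with 91.1% identity over 1652 aligned bases, and Serpina3f and Serpina3g, with 89.7% over 1796. The reads were 50 bases long, so the share of 50-base windows found letter for letter in another gene was counted for 1 annotated transcript of each member. It was 4.25% for Serpina3c, 6.90% for Serpina3n, 10.7% for Serpina3f, 14.0% for Serpina3k, 16.0% for Serpina3g and 19.1% for Serpina3m. Allowing 2 mismatches to another Serpina3 gene, it was between 27.8% for Serpina3n and 49.9% for Serpina3m. A member's reads can therefore hold some that came from a copy, and each level below carries that uncertainty.

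**Figure D1:**
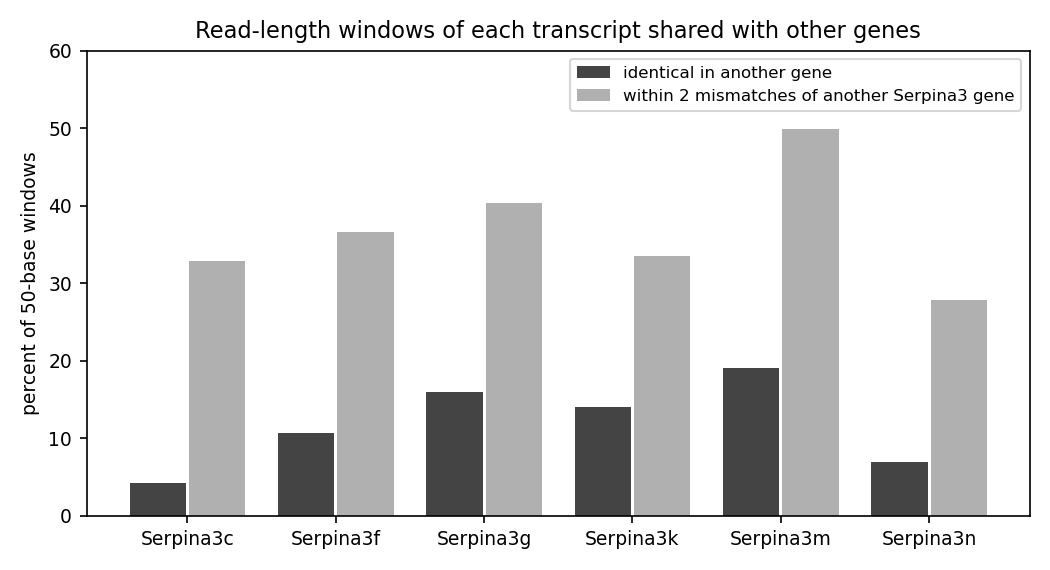
Percent of the 50-base windows of each member's transcript (y axis) that occur letter for letter in any other gene (dark bars) or within 2 mismatches of another Serpina3 gene (grey bars). Serpina3m has the highest bars, at 19.1% and 49.9%, and Serpina3n has the lowest grey bar, at 27.8%.

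The tests used scaled reads, in which a gene's estimated read number has been multiplied by a factor common to its library. Dividing a value by the worth of 1 read in its library came out whole, to a tolerance of 0.1 read, for Serpina3c, Serpina3m and Serpina3n in all 15 libraries. Serpina3k gave a fraction in 1 library, and Serpina3f and Serpina3g gave fractions in 2. In vehicle library c they held 8.59 and 5.41 reads, which sum to 14, and in library 3 of glucagon with IL-13 they held 15.2 and 48.8 reads, which sum to 64. In these libraries reads had been divided between the pair. Libraries held 15567731 to 24246036 recovered reads.

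Per length, in FPKM (fragments scaled to transcript length and library size), the 6 genes fell into an abundant and a scarce set. Serpina3k had a mean of 1405 FPKM over the 15 libraries and ranked 49 of 24347 entries. Serpina3n followed with 181 FPKM (rank 489) and Serpina3m with 28.7 FPKM (rank 2742). The scarce set was Serpina3g with 0.733 FPKM, Serpina3c with 0.632 FPKM and Serpina3f with 0.276 FPKM. The order Serpina3k, Serpina3n, Serpina3m held in every library, with Serpina3k at 6.68 to 8.06 times the FPKM of Serpina3n and at 41.6 to 55.0 times that of Serpina3m. The neighbours Serpina3g and Serpina3c overlapped over the libraries, from 0.0290 to 2.35 FPKM and from 0.306 to 0.999 FPKM, and Serpina3c and Serpina3f (0.0678 to 0.538 FPKM) overlapped as well. Serpina3k took 79.97% to 83.03% of the reads of the 6 members together.

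**Figure D2:**
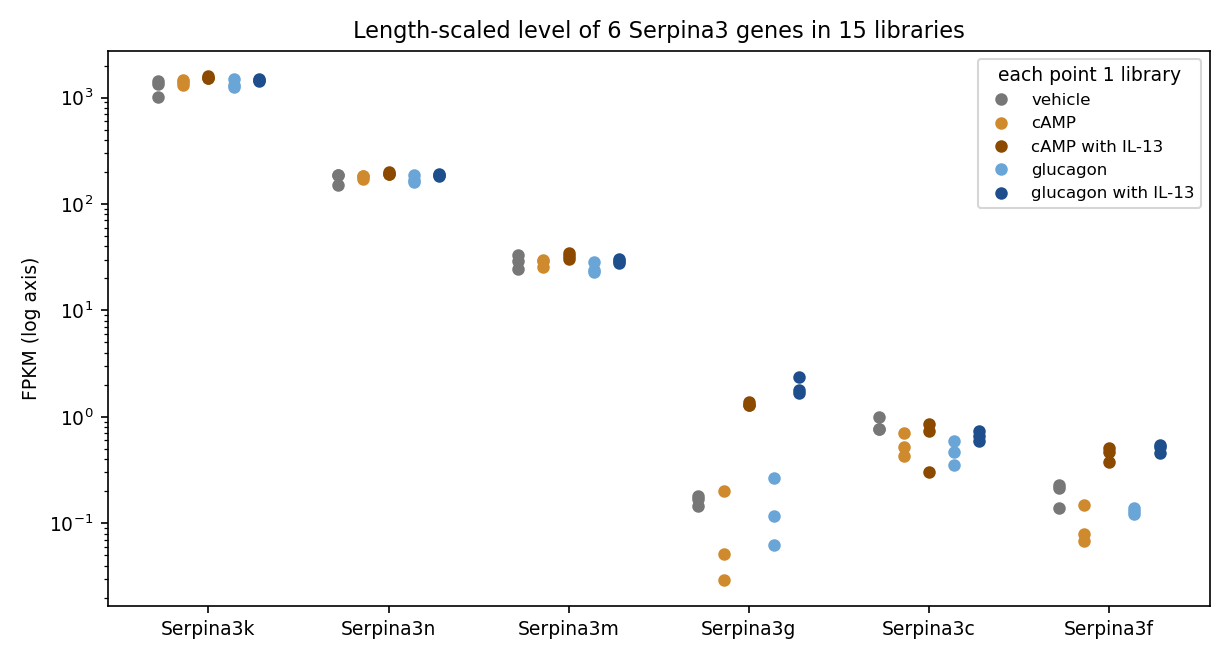
FPKM of the 6 Serpina3 genes (y axis, log scale) in each of 15 libraries, coloured by group. Serpina3k, Serpina3n and Serpina3m stay above 22.9 FPKM in every group, and Serpina3g moves from 0.0290 to 0.268 FPKM without IL-13 to 1.28 to 2.35 FPKM with it.

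The promoters of 4 members, taken from RefSeq (GRCm38.p6, from 250 bases before to 50 after the start site), are shown in part because Serpina3f and Serpina3g, the members that rose with IL-13 below, hold a STAT-type motif there and Serpina3c and Serpina3n do not. Serpina3k and Serpina3m, which were not called with IL-13, had no promoter in the set and were not searched. Serpina3f and Serpina3g are close copies, so their matches are not independent. A link between the motif and the rise was not tested. The motif searched was TTCNNNGAA, which reads the same on both strands. It occurred in 8.30% of all 32851 RefSeq promoters of this length. The lines give 41 bases, 5′ to 3′, around the match in Serpina3g and the stretch that aligns with it in Serpina3f, Serpina3c, Serpina3n and the neighbouring gene Serpina3i, with the 9 bases of the motif position in capitals.
Serpina3g: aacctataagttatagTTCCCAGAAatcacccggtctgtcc
Serpina3i: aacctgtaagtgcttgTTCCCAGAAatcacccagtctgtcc
Serpina3f: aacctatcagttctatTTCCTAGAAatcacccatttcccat
Serpina3c: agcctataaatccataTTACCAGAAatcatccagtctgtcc
Serpina3n: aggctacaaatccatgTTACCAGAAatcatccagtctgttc
Counted from 1 at the first capital and against Serpina3g, the substitution was C5T in Serpina3f, which keeps the motif, and C3A in Serpina3c and in Serpina3n, which lose it. Serpina3i carried the same 9 bases as Serpina3g. The windows are on chromosome 12, at 104236098 to 104236138 on the + strand for Serpina3g, 104214407 to 104214447 (+) for Serpina3f, 104263004 to 104263044 (+) for Serpina3i, 104153968 to 104154008 on the - strand for Serpina3c and 104406569 to 104406609 (+) for Serpina3n. The motif began 33 bases before the listed start site of Serpina3g and 121 bases before the first listed start site of Serpina3f. The longer form with 4 free bases in its middle, found in 6.95% of promoters, was in none of the 4 members' windows but was in that of Serpina3i, where it began 34 bases before the start site. None of the 4 members' windows held the cAMP response element TGACGTCA (1.79% of promoters) or its shorter form TGACG (20.8%), searched on both strands. In Serpina3b the aligned stretch carried T2C, C3A and G7T and no match. These matches describe the letters in the windows only. The motifs were searched with the expression results known.

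The first question was what IL-13 added to a stimulated hepatocyte. Serpina3g and Serpina3f rose with IL-13 on both stimuli, and no other member passed the test. Serpina3g, also known as Spi2A, encodes an inhibitor of lysosomal cathepsins that is best known from lymphocytes and myeloid cells. It stood at 1.02, 7.07 and 1.79 scaled reads with cAMP and at 44.7, 47.8 and 45.3 with cAMP and IL-13. All 3 libraries with IL-13 were above all 3 without it, by 13.95-fold between the means. The log2 fold change of (scaled reads + 1) was 3.72 ± 0.44 (SE, n = 3 per group, adjusted p = 3.06e-05, limma over 12703 genes). With glucagon, Serpina3g stood at 9.78, 2.22 and 4.13 scaled reads, and with glucagon and IL-13 at 61.8, 82.7 and 60.9. The groups again did not overlap, and the log2 fold change was 3.61 ± 0.44 (adjusted p = 3.94e-05, limma). Summed over a group, 9 reads with cAMP stood against 155 with cAMP and IL-13, a scaled ratio of 15.0 with a 95% exact interval of 7.72 to 33.5. For glucagon the sums were 15 and 193 reads, with a ratio of 12.8 (7.56 to 23.3). These intervals cover counting error only.

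Serpina3f, the member closest to Serpina3g by transcript sequence, showed a smaller rise. It stood at 5.09, 2.36 and 2.68 scaled reads with cAMP and at 13.8, 17.1 and 19.3 with cAMP and IL-13, with no overlap. The log2 fold change was 2.06 ± 0.32 (adjusted p = 0.000489, limma). With glucagon it stood at 4.35, 4.44 and 5.16 scaled reads, and with glucagon and IL-13 at 17.1, 18.9 and 19.0. Here too the libraries with IL-13 were all above those without, and the log2 fold change was 1.78 ± 0.32 (adjusted p = 0.00179, limma). The pseudocount of 1 understates such changes in scarce genes. From the summed reads the ratio was 4.89 (95% exact interval 2.47 to 10.8) with cAMP and 3.90 (2.09 to 7.81) with glucagon.

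Across all 12703 genes tested, 3.90% were called for IL-13 on cAMP, 2.52% higher and 1.38% lower, and 5.73% were called for IL-13 on glucagon, 3.50% higher and 2.23% lower. The members' counts were 2 of 6 higher and none lower on each stimulus. How many of all genes had groups without overlap was not counted. Serpina3f and Serpina3g entered the test only through the IL-13 groups, since they stayed under 10 scaled reads in all libraries of the other 3 groups and the filter asked for 10 in 3 libraries. Their place among the tested genes thus depended on the rise itself. In bulk RNA, more cells that express a gene and more RNA per cell cannot be told apart.

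**Figure D3:**
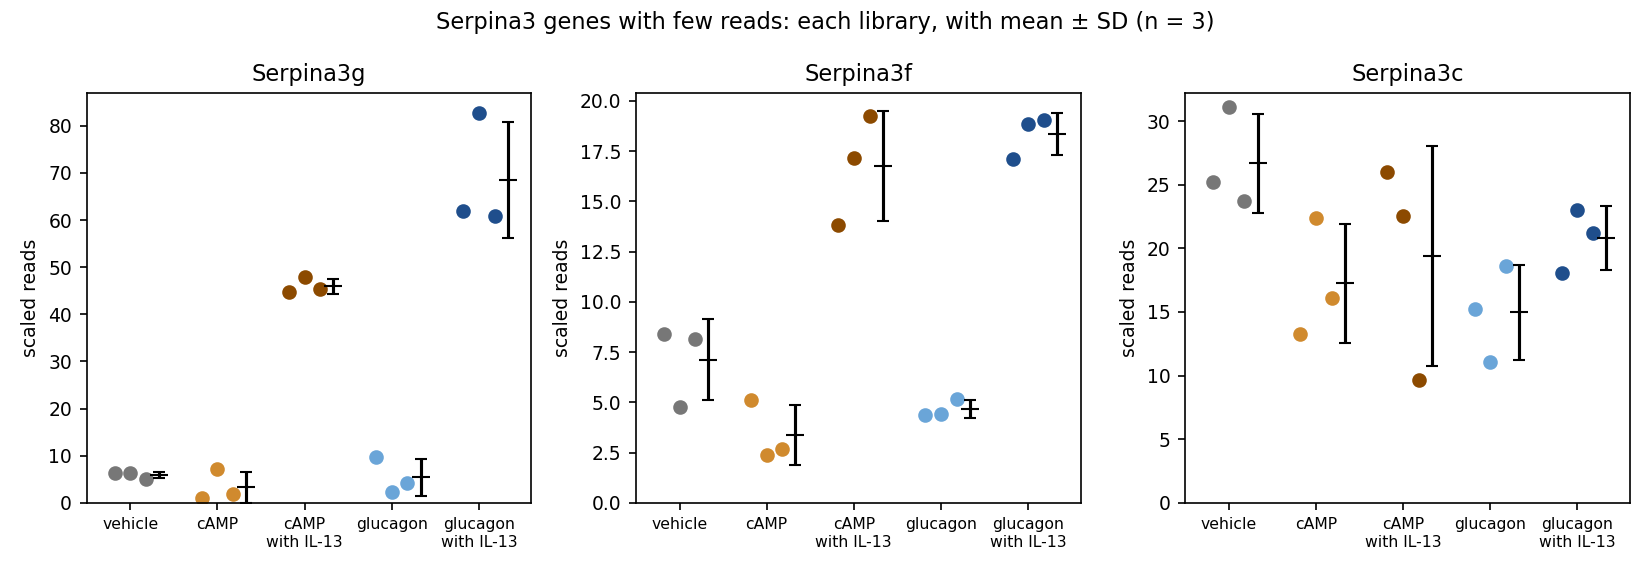
Scaled reads (y axis, linear from 0) of Serpina3g, Serpina3f and Serpina3c in each library of the 5 groups, with the mean ± SD of 3 libraries beside the points. Serpina3g and Serpina3f sit higher in all 6 libraries with IL-13 than in the 9 without, while Serpina3c overlaps.

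Because Serpina3f and Serpina3g can trade reads, their sum is given as well, without a test. It was 58.6 to 101.6 scaled reads in the 6 libraries with IL-13 and 4.47 to 14.7 in the 9 without. Serpina3g made up 70.2% to 81.4% of the sum with IL-13 and 16.7% to 75.0% without, so its share overlapped between the conditions where few reads were counted. Even with IL-13, Serpina3g remained scarce beside Serpina3k, whose FPKM was 627 to 1200 times as high in those 6 libraries. Serpina3g reached 60.9 to 82.7 scaled reads with glucagon and IL-13, above the 44.7 to 47.8 with cAMP and IL-13. That pair of groups was not compared by a test.

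Serpina3h and Serpina3i, which lie between Serpina3g and Serpina3k and are not among the 6 members, had few reads. Serpina3i, which carries the same 9-base motif as Serpina3g, was listed at 0 in all 6 libraries with vehicle or cAMP. It had 10 reads in all with cAMP and IL-13, 1 with glucagon and 6 with glucagon and IL-13. Serpina3h, a transcribed pseudogene, was listed at 0 in the libraries with cAMP or glucagon alone and had 2 reads in all with vehicle, 6 with cAMP and IL-13, and 7 with glucagon and IL-13. A count of 0 allows up to 3 reads in a library. Both genes stayed below the filter and were not tested. Serpina3j, which also lies there, was tested and was not called with IL-13. Its log2 fold change was -0.02 ± 0.20 on cAMP (adjusted p = 0.991, limma) and 0.36 ± 0.20 on glucagon (adjusted p = 0.369, limma). Of the 50-base windows of Serpina3h, 24.4% occurred letter for letter in another gene, and for Serpina3g the gene that shared most windows was Serpina3h, with 8.67%.

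The second question was what each stimulus did without IL-13. With cAMP, Serpina3f was the only member of 6 that was called, as lower than with vehicle, and the call was not stable. Of all genes, 25.8% were called, 13.0% higher and 12.8% lower, so 1 of 6 is no more than the background. Serpina3f was under 10 scaled reads in both groups. Serpina3f stood at 8.40, 4.78 and 8.16 scaled reads with vehicle against 5.09, 2.36 and 2.68 with cAMP. The groups overlapped, since 1 cAMP library was above the lowest vehicle library, and the log2 fold change was -0.91 ± 0.32 (adjusted p = 0.0421, limma). The summed reads were 23 and 10, with a ratio of 0.481 and a 95% exact interval of 0.204 to 1.05 that includes 1. The call was lost when vehicle library a (adjusted p = 0.128), vehicle library c (0.125), cAMP library 2 (0.135) or cAMP library 3 (0.122) was left out, and it was also lost when any 1 of the 6 libraries with IL-13 was left out (0.0514 to 0.0562), which left its fold change at -0.91. It was lost as well with a pseudocount of 5 (adjusted p = 0.0732), with FPKM (0.059) and with voom on recovered reads (0.0529).

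Serpina3c had fewer reads with either stimulus than with vehicle, but did not pass. It stood at 25.2, 31.1 and 23.8 scaled reads with vehicle, at 13.2, 22.4 and 16.1 with cAMP and at 15.2, 11.1 and 18.6 with glucagon. Every library with a stimulus alone was below every vehicle library, but how many of all genes separated in this way was not counted. The log2 fold change was -0.62 ± 0.31 (adjusted p = 0.162, limma) with cAMP and -0.81 ± 0.31 (adjusted p = 0.0803, limma) with glucagon. The ratio of summed reads was 0.628 (95% exact interval 0.435 to 0.899) with cAMP and 0.558 (0.377 to 0.814) with glucagon, counting error only. The 3 vehicle libraries serve both contrasts. Without library 3 of cAMP with IL-13, in which Serpina3c had its lowest value of 9.63, the adjusted p for glucagon was 0.0293.

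Serpina3g had 6.30, 6.38 and 5.14 scaled reads with vehicle, and its log2 fold change was -0.95 ± 0.44 (adjusted p = 0.13, limma) with cAMP and -0.30 ± 0.44 (adjusted p = 0.702, limma) with glucagon. Library 2 of the cAMP group, with 7.07 scaled reads, decided the first of these values. Without it the log2 fold change was -1.54 with an adjusted p of 0.00751. For glucagon against vehicle, no member was called, where 18.9% of all genes were, 9.35% higher and 9.53% lower. At 15 summed reads with glucagon and 19 with vehicle, the change of -0.30 in Serpina3g could not be told from counting error.

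**Figure D4:**
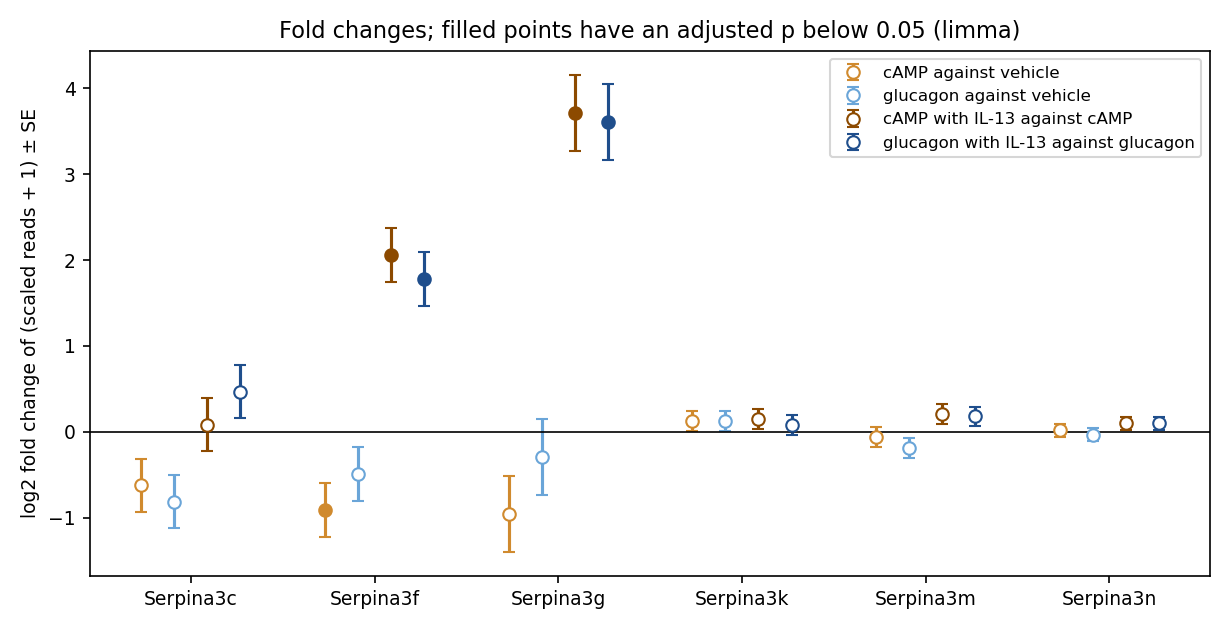
Log2 fold change of (scaled reads + 1) with its standard error (y axis) for the 6 members in 4 comparisons of 3 against 3 libraries, with filled points for an adjusted p below 0.05. Serpina3g (3.72 and 3.61) and Serpina3f (2.06 and 1.78) stand apart with IL-13, and Serpina3k, Serpina3m and Serpina3n lie between -0.19 and 0.21.

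The abundant members did not pass in any comparison. Serpina3k encodes a plasma serpin long known as contrapsin. It stood at 40132, 34848 and 26436 scaled reads with vehicle, 36393, 38830 and 33778 with cAMP, and 34978, 34894 and 39580 with glucagon. With IL-13 it stood at 38979, 41380 and 40624 on cAMP and at 36948, 38549 and 40317 on glucagon. Of the 12 other libraries, 9 lay within the range of the vehicle libraries and 3 above it. The log2 fold change of Serpina3k was 0.12 ± 0.12 with cAMP, 0.13 ± 0.12 with glucagon, 0.15 ± 0.12 for IL-13 on cAMP and 0.08 ± 0.12 for IL-13 on glucagon, with adjusted p from 0.494 to 0.775 (limma). For IL-13 on cAMP the 3 libraries of each group did not overlap for Serpina3k, nor did they for Serpina3n. Neither gene was called, and how many of all genes did not overlap was not counted.

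Serpina3n, the mouse copy most often compared with human SERPINA3 and known as an inhibitor of granzyme B and leukocyte elastase, had the smallest SE of the 6 members. Its libraries read 7580, 7416 and 5921 with vehicle, 7242, 7193 and 6652 with cAMP, 7373, 7707 and 7526 with cAMP and IL-13, 6459, 6600 and 7300 with glucagon, and 7024, 7443 and 7333 with glucagon and IL-13, all in scaled reads. Its log2 fold change lay between -0.03 and 0.10 in the 4 comparisons, each with an SE of 0.07. Serpina3m, the close copy of Serpina3k, had group means of 807 ± 154 scaled reads with vehicle, 766 ± 63.2 with cAMP, 885 ± 60.9 with cAMP and IL-13, 702 ± 70.2 with glucagon and 793 ± 53.8 with glucagon and IL-13 (SD, n = 3). Its log2 fold change was 0.21 ± 0.11 for IL-13 on cAMP (adjusted p = 0.497, limma) and 0.18 ± 0.11 for IL-13 on glucagon (adjusted p = 0.443, limma), and -0.19 ± 0.11 for glucagon against vehicle (adjusted p = 0.286, limma).

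The spread of the abundant members ran in parallel. The library with the least Serpina3k in its group was also lowest for Serpina3m and Serpina3n in 4 of 5 groups, and the library with the most Serpina3k was highest for Serpina3m in 5 of 5 groups and for both others in 3 of 5. These genes share libraries, and Serpina3k and Serpina3m also share windows, which were 12.8% of those of Serpina3k. Vehicle library c stood lowest of the 3 vehicle libraries, at 26436 for Serpina3k, 664 for Serpina3m and 5921 for Serpina3n. In the same library the 9 hepatocyte marker genes summed to 19810 FPKM, against 22419 and 21826 in vehicle libraries a and b. The part of this in the members' spread was not tested. Without vehicle library c, Serpina3m was called lower with glucagon than with vehicle (log2 fold change -0.32, adjusted p = 0.0391, limma).

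**Figure D5:**
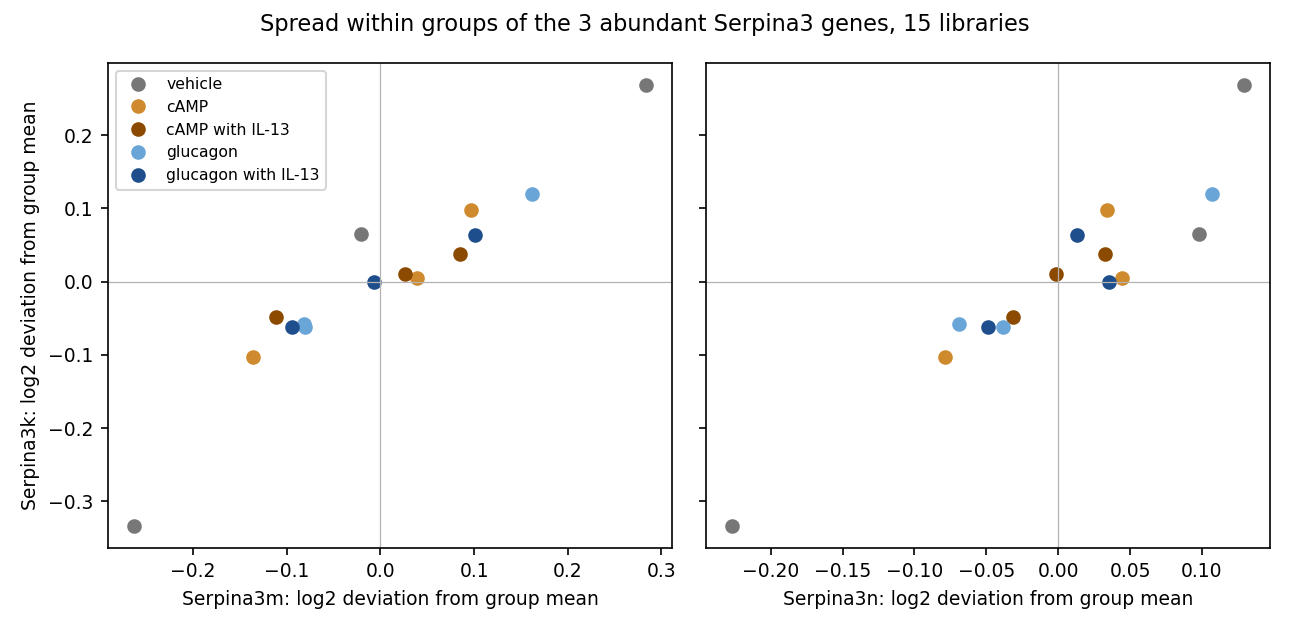
Deviation of each library from its group mean on the log2 scale for Serpina3k (y axis) against Serpina3m and Serpina3n (x axes), coloured by group. The points rise from lower left to upper right, and the vehicle libraries, with 26436 to 40132 scaled reads of Serpina3k, lie at both ends.

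Against vehicle, the groups with both agents gave the same pair of genes. With cAMP and IL-13, where 26.2% of all genes were called (13.3% higher and 12.9% lower), Serpina3g had a log2 fold change of 2.76 ± 0.44 (adjusted p = 0.000118, limma) and Serpina3f of 1.15 ± 0.32 (adjusted p = 0.0114, limma). With glucagon and IL-13, where 20.6% were called (10.7% higher and 9.82% lower), the values were 3.31 ± 0.44 (adjusted p = 2.05e-05, limma) and 1.29 ± 0.32 (adjusted p = 0.00676, limma). Here too Serpina3f and Serpina3g were among the tested genes only through the IL-13 groups, so their calls depended on the rise itself. The other 4 members were not called in either comparison. The call of Serpina3f on cAMP with IL-13 was lost without vehicle library b (adjusted p = 0.0587) and without library 3 of cAMP with IL-13 (0.0542). Without vehicle library a, Serpina3k was called higher than vehicle in both groups (log2 fold change 0.41, adjusted p = 0.00927, and 0.35, adjusted p = 0.028, limma), and Serpina3m was called with cAMP and IL-13 (0.29, adjusted p = 0.0244). With FPKM in place of scaled reads, Serpina3k was called with cAMP and IL-13 against vehicle (0.31, adjusted p = 0.0264, limma). These comparisons share their vehicle libraries with each other and with the stimulus comparisons.

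No member was called between glucagon and cAMP (4.27% of all genes were called, 1.76% higher and 2.51% lower with glucagon). The largest value was that of Serpina3g, at 0.66 ± 0.44 (adjusted p = 0.543, limma), with 15 and 9 summed reads and a ratio of 1.76 (95% exact interval 0.722 to 4.57), which leaves room for a difference in either direction. The difference between the IL-13 effects on the stimuli was also tested, and none of the 12703 genes passed with limma (0% called), while 608 had an unadjusted p under 0.05, none of them a member. It was -0.10 ± 0.63 for Serpina3g and -0.28 ± 0.45 for Serpina3f on the log2 scale. An unequal IL-13 effect on the stimuli was thus not shown for any member, and the SEs leave room for one in Serpina3g and Serpina3f.

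Other serpins of clade A, the class of Serpina3, were followed in the same comparisons. Of 20 listed genes, 19 were in the table and 15 were tested, and 2 were higher and none lower with IL-13 on cAMP. These were Serpina5, the protein C inhibitor, from 4.42 to 16.5 scaled reads on average (log2 fold change 1.66 ± 0.37, adjusted p = 0.0121, limma), and Serpina6, the carrier of glucocorticoids, from 267 to 366 (0.46 ± 0.10, adjusted p = 0.0106, limma). Serpina5 averaged 4.42 scaled reads with cAMP and 4.14 with vehicle, under the level that the filter asked for. With IL-13 it averaged 16.5 on cAMP and 12.4 on glucagon. The place of Serpina5 among the tested genes may thus have depended on the rise itself, which limits its call. None of the 15 was called with IL-13 on glucagon, where 5.73% of all genes were. On cAMP the share of all genes called with IL-13 was 3.90%. With cAMP against vehicle 2 were higher and 1 was lower, and with glucagon 1 was lower, Serpina4-ps1, a pseudogene, at 9.43 against 22.9 scaled reads. Among all genes tested, 25.8% were called with cAMP and 18.9% with glucagon, so these counts are no more than the background. Against vehicle, 5 were higher and none lower with cAMP and IL-13, led by Serpina5 (1.81 ± 0.37, adjusted p = 0.00107, limma), and 3 were higher and none lower with glucagon and IL-13. Of all genes, 13.3% were higher and 12.9% lower with cAMP and IL-13, and 10.7% and 9.82% with glucagon and IL-13. The limit given for Serpina5 holds here too. The median log2 fold change of the 15 was 0.08 for IL-13 on cAMP and 0.05 for IL-13 on glucagon, beside 0.00 over all genes tested.

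Proteases that serpins act on were measured in the same libraries. Ctsb and Ctsl, cathepsins that Spi2A is known to inhibit, stood at 218 to 270 FPKM and 869 to 1221 FPKM. Gzmb, the granzyme that Serpina3n inhibits, was at 0 to 0.113 FPKM, and the mast cell proteases Cma1 and Mcpt4 were listed at 0 in every library. Of 14 tested proteases, 1 was lower and none higher with IL-13 on each stimulus, Ctsb on cAMP (-0.13 ± 0.04, adjusted p = 0.0411, limma) and Plat, the tissue plasminogen activator, on glucagon (-0.51 ± 0.10, adjusted p = 0.00385, limma). The share of all genes called with IL-13 was 3.90% on cAMP and 5.73% on glucagon. With cAMP against vehicle 5 were higher and 2 lower, among them Ctsl at 0.37 ± 0.05 and Plau, the urokinase, at -1.09 ± 0.14. In that comparison 13.0% of all genes were higher and 12.8% lower.

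In the list of IL-6, IL-13 and STAT pathway genes, 5 of 21 tested were higher and none lower with IL-13 on cAMP, and 6 of 21 were higher on glucagon. Over all genes, 2.52% were higher with IL-13 on cAMP and 3.50% on glucagon. Cish, a feedback inhibitor of cytokine receptors and a STAT target, went from 454 to 1583 scaled reads on cAMP (log2 fold change 1.80 ± 0.07) and from 366 to 1378 on glucagon (1.91 ± 0.07). With cAMP against vehicle, 6 of the 21 were higher and 7 lower, where 13.0% of all genes were higher and 12.8% lower. Socs3, the feedback inhibitor of IL-6 signalling, was higher with cAMP than with vehicle (3.02 ± 0.09), as was Stat3 (0.64 ± 0.07), the factor of the acute phase, while the feedback inhibitors Socs2 (-1.84 ± 0.08) and Socs1 (-1.72 ± 0.25) and the oncostatin M receptor gene Osmr (-1.01 ± 0.12) were lower. The receptor genes Il13ra1 and Il4ra were present at 15.7 to 20.0 and 4.88 to 6.82 FPKM, and Il13ra2, the decoy receptor, at 0 to 0.122 FPKM.

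Markers of other liver cells were checked because Serpina3g is best known from immune cells. All 9 hepatocyte markers in the table were tested, and their sum, most of it Alb, was 19810 to 24034 FPKM over the libraries. With IL-13, 2 were lower and none higher on cAMP, Cps1 (-0.35 ± 0.07, adjusted p = 0.00661, limma) and Hnf4a (-0.27 ± 0.07, adjusted p = 0.0256, limma), and Hnf4a was the 1 called on glucagon (-0.28 ± 0.07, adjusted p = 0.0129, limma). Of the 12 Kupffer cell and macrophage markers, 1 was lower and none higher with IL-13 on cAMP and none was called on glucagon. Their summed FPKM on cAMP was 246 to 271 without and 226 to 233 with IL-13, and on glucagon it was 252 to 256 without and 235 to 239 with IL-13, with Cd68 the largest single part. The 12 lymphocyte markers summed to 0.613 to 1.13 FPKM over all libraries, with Klrb1c at 0 in each, and the only tested one, Ptprc, was lower with IL-13 on glucagon (-0.57 ± 0.16, adjusted p = 0.0463, limma). The 11 stellate cell markers summed to 6.28 to 9.07 FPKM with none called for IL-13. Sinusoidal endothelial markers summed to 16.5 to 24.7 FPKM, with 1 of 9 higher and 2 lower on cAMP and 2 higher and 2 lower on glucagon. Among 3 tested cholangiocyte markers Sox9 was higher with IL-13 on glucagon (0.47 ± 0.09, adjusted p = 0.00246, limma), and the summed FPKM of the 6 on the list was 571 to 594 on cAMP and 634 to 649 once IL-13 was added, 569 to 582 on glucagon and 636 to 655 once IL-13 was added. Nearly all of that sum was Spp1, and none of the 3 was called with IL-13 on cAMP. Beside these counts, 3.90% of all genes were called with IL-13 on cAMP and 5.73% on glucagon. The part of these markers in the rise of Serpina3g and Serpina3f was not tested.

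Genes with a pattern most like that of the abundant members were taken by the root mean square difference of the 5 centred group means, over 9197 genes with a mean of at least 100 scaled reads. For Serpina3k they were Il10rb (0.009), Nktr (0.009) and Cfi (0.013), for Serpina3m Baz1a (0.022), Rcl1 (0.032) and Tusc1 (0.032), and for Serpina3n Mprip (0.008), Esrra (0.010) and Celf2 (0.011), in log2 units over 5 groups. The group means of these members were nearly flat, so the measure mostly finds other flat genes. Serpina3c, Serpina3f and Serpina3g had means of 19.8, 10.04 and 25.8 scaled reads and were left out of it.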

How the data were processed

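Total RNA of cultured hepatocytes was made into TruSeq libraries and read as 50-base single-end sequences. The authors mapped them to mm10 using TopHat 1.3.2 and derived gene values using Cufflinks 2.0.2. The annotation and strand setting are not given in the sources used here. The deposited signal holds estimated reads per gene times 1 factor per library (steps of 0.797 to 1.25), called scaled reads. The deposited FPKM values, computed by the authors, served to compare levels between genes and as an alternative. A signal is not a count, so limma 3.58.1 (R 4.3.3) replaced the planned count test. The 12703 genes that reached 10 scaled reads in 3 or more libraries entered. The fit took log2(scaled reads + 1) of all 15 libraries, group alone as its term, and robust empirical Bayes with a trend, for 8 comparisons. Calls were made at 0.05 after Benjamini-Hochberg adjustment over those genes. Recovered reads (15567731 to 24246036 per library) gave intervals that cover counting error only. The script was tested on simulated data. Groups followed the sample titles, although 1 description field names the cAMP samples as controls. The vehicle columns match the group but no single sample, and are called a, b and c. The named genes were all 6 members, and from each other list at most the 3 largest rises and falls past the threshold, plus the 3 genes nearest in pattern to each abundant member. Serpina3h, Serpina3i, Serpina3j and the levels of single receptors and proteases were named after their values were seen. The members and lists were chosen with earlier results of these data known. Transcript windows came from GENCODE vM21, promoters and gene positions from RefSeq (GRCm38.p6), and alignments were made with Biopython 1.88. Of the 6 members, 4 had a promoter in the table. The list of serpins of other clades is not reported here.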

Additional observations from a re-analysis of the deposited data

How the results depend on the processing

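The rises of Serpina3g and Serpina3f with IL-13 kept their direction and stayed past the threshold in every alternative that tested them, 25 fits for Serpina3g and 24 for Serpina3f on each stimulus. The log2 fold change of Serpina3g ran from 2.69 to 4.31 on cAMP and from 2.88 to 4.08 on glucagon, and that of Serpina3f from 1.38 to 2.32 and from 1.27 to 1.87. A filter of at least 50 scaled reads in 3 libraries left 4 members, without Serpina3f, and so 1 member called for IL-13 on each stimulus and 1 for each IL-13 group against vehicle. The single call for cAMP against vehicle became 0 with a pseudocount of 5, with that filter, with FPKM, with voom weights on recovered reads (added after seeing the data) and with only the libraries of both groups, where Serpina3f fell below the filter, and 0 to 1 when single libraries were left out. The count without single libraries ran from 0 to 1 for glucagon against vehicle and from 1 to 4 for cAMP with IL-13 against vehicle.

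Values that were not called changed sign as follows, in log2 units, and the cause was not tested. For cAMP against vehicle, Serpina3n was -0.033 with scaling by library size alone and -0.034 with voom, and without single libraries Serpina3k ran from -0.044 to 0.26, Serpina3m from -0.19 to 0.082 and Serpina3n from -0.094 to 0.084. For glucagon against vehicle, single libraries moved Serpina3g from -0.77 to 0.11, Serpina3k from -0.038 to 0.26 and Serpina3n from -0.15 to 0.032. For glucagon against cAMP, Serpina3k was -0.037 with FPKM, and single libraries moved it from -0.054 to 0.055 and Serpina3c from -0.35 to 0.0055. For IL-13 on cAMP, Serpina3c ran from -0.17 to 0.50. For glucagon with IL-13 against vehicle, Serpina3m was 0.015 with FPKM and ran from -0.14 to 0.13, and Serpina3n ran from -0.046 to 0.13. For the difference of the IL-13 effects, Serpina3g was 0.19 with a pseudocount of 5 and 0.13 with FPKM, and Serpina3n was 0.012 with library size, 0.0080 with FPKM and 0.0099 with voom. There single libraries moved Serpina3c from -0.030 to 0.64, Serpina3g from -0.69 to 0.36, Serpina3m from -0.084 to 0.052 and Serpina3n from -0.035 to 0.053.

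The labels do not say that equal replicate numbers mark shared animals. Of 18 same-numbered pairs of the 12 stimulated libraries, 6 had a correlation of deviations above 0.1 (-0.47 to 0.49). The same held for 8 of 36 pairs with other numbers (-0.55 to 0.54). With 3 libraries per group, these values do not settle whether the numbers pair the libraries. With the replicate number as a block on those 12 libraries, 2 members were called for IL-13 on cAMP, 2 for IL-13 on glucagon and 0 for glucagon against cAMP, as without it, and Serpina3g had an adjusted p of 0.000223 on cAMP and 0.000245 on glucagon (limma). Vehicle columns carry no number, so no such fit was possible against vehicle. The planned edgeR and DESeq2 alternatives were not run, because the deposited values are not counts and some lie below 1 read. The depth limits Serpina3c, Serpina3f and Serpina3g most, with 9 to 193 reads summed over the 3 libraries of a group.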
